A study of Arabidopsis thaliana with 36 samples.

Results

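The genes IAA10, IAA11, IAA12, IAA13, IAA18, IAA26 and IAA28 of Arabidopsis thaliana encode 7 members of the Aux/IAA family. They were chosen by name, as the rows of these 7 genes among the 33602 genes of the count table, and not by a rule on their values. Earlier results of these data were known when the choice was made. All 7 had enough reads to be tested, as did 20126 genes in all.

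Aux/IAA proteins are short-lived repressors of auxin signalling. They bind auxin response factors (ARFs) on the promoters of auxin-regulated genes and recruit TOPLESS corepressors. Auxin joins them to receptors of the TIR1/AFB family through a short stretch, the degron, after which they are degraded. IAA12, also called BODENLOS, represses the factor ARF5 (MONOPTEROS) in the embryo, and IAA13 is its close relative with an overlapping role. IAA10 and IAA11 are less studied members. IAA18 acts in embryo and lateral root development, IAA26 was also named PHYTOCHROME-ASSOCIATED PROTEIN1, and stabilised IAA28 blocks lateral root formation. In shade, a low ratio of red to far-red light (R/FR) inactivates phytochrome B, auxin synthesis rises in cotyledons, and auxin moves to the hypocotyl, which elongates.

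Gene counts came from 36 RNA sequencing libraries of Col-0 seedlings, a wild-type accession. Seedlings grew for 5 days in long days on 1 plate per sample, and from the next morning were exposed to low R/FR or remained in high R/FR. Cotyledons and hypocotyls of 50 acetone-fixed seedlings per sample were dissected at 0 min (high R/FR alone) and, for both lights, after 15, 45, 90 and 180 min, making 18 groups of 2 libraries. The replicate numbers of the compared lights were not always the same. At 15 min in both organs high R/FR held replicates 1 and 2 and low R/FR replicates 1 and 3. In hypocotyl at 180 min high R/FR held replicates 2 and 3 and low R/FR replicates 1 and 3. No label speaks of separate cultures or days, and p-values therefore measure only the spread between these samples; whether the organs of a replicate came from the same plate is not stated.

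Reads counted on genes numbered 24897594 to 45115165 per cotyledon library and 23560273 to 34231167 per hypocotyl library. Of the 6 shoot apex markers, the summed level was 152 to 418 CPM (library-scaled read counts) in hypocotyl and at most 0.68 CPM in cotyledon, with WUS at 0 in every cotyledon library. Guard cell markers summed to 88.6 to 340 CPM in cotyledon and 8.37 to 25.7 CPM in hypocotyl, and photosynthesis markers to 89740 to 112446 and 18174 to 32671 CPM. Root markers summed to 348 to 1206 CPM in cotyledon, where RHD6 was at 0 in every library, and to 769 to 6720 CPM in hypocotyl. Of the 7 root markers only 2, PRP3 and BGLU23, had enough reads to be tested, so the sum says little about the others. In such bulk tissue, fewer cells of a type and less RNA per cell cannot be told apart.

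All 7 proteins carried 1 copy of the glycine-tryptophan-proline-proline core of the degron, the part that the auxin receptor binds, whereas the 6 non-canonical members of the family (IAA20, IAA30, IAA31, IAA32, IAA33 and IAA34) carried 0. The core is not particular to the 7, since the 16 other canonical members also carried 1 copy each. The coding stretches around the core are shown because auxin acts on these proteins through the degron. They were read from the RefSeq annotation of TAIR10.1, 5′ to 3′ on the coding strand, with the codons of the core in capitals:
IAA10: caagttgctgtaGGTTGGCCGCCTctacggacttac
IAA11: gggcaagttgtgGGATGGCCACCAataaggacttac
IAA12: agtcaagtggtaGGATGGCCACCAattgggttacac
IAA13: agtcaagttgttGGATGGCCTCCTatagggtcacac
IAA18: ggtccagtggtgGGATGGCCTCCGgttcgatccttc
IAA26: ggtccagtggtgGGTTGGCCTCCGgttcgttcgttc
IAA28: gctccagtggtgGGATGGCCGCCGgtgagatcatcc

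These stretches lie at chr1:1060325-1060360 (plus strand) in IAA10, chr2:14115230-14115265 (minus) in IAA13, chr1:19306228-19306263 (plus) in IAA18, chr3:5613659-5613694 (minus) in IAA26 and chr5:9033809-9033844 (plus) in IAA28. In IAA11 (chr4:14142546-14143035, plus) and IAA12 (chr1:1240783-1241090, plus) an intron interrupts the stretch, and the exonic parts are joined. The core codons of IAA11 and IAA12 were identical. Those of IAA13, IAA18 and IAA28 differed from them at 2 bases and those of IAA10 and IAA26 at 3, all without a change of amino acid. The encoded proteins ranged from 175 residues in IAA28 to 302 in IAA11.

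Promoters were searched on both strands over 1000 bases upstream of the RefSeq gene start for 4 motifs. TGTCTC is the classical auxin response element and occurred in 39.6% of 27443 promoters, and TGTCGG, a variant that ARFs bind tightly in vitro, in 14.6%. CACGTG, the G-box, and CATGTG are bound by phytochrome-interacting factors and occurred in 14.8% and 37.7%. IAA11 held 1 CACGTG and 2 CATGTG, IAA12 and IAA13 1 TGTCGG each, IAA10 1 TGTCTC, and IAA26 2 TGTCTC. IAA28 held 1 TGTCTC, 1 TGTCGG and 2 CATGTG, and in IAA18 these letters were not in the window. Windows are shown for the G-box of IAA11, the gene with the largest response below, and for the TGTCGG matches of the close relatives IAA12 and IAA13, with the motif in capitals:
IAA11: cccctctctgtaCACGTGggtcccactaag
IAA12: caggtttgattaTGTCGGaagacaagtttt
IAA13: caagtttgataaTGTCGGgaagaaaagtta

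In TAIR10.1 these are chr4:14141510-14141539 (plus), chr1:1240244-1240273 (plus) and chr2:14116172-14116201 (minus), and their motifs begin 541, 38 and 100 bases upstream of the gene start. A match is a description of the sequence and not of binding.

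The levels of the 7 genes were first compared per length (RPKM, with exonic lengths of RefSeq) over the 10 high R/FR libraries of each organ. In cotyledon, IAA18 stood highest with a median of 33.2 RPKM (24.2 to 39.5), followed by IAA12 with 27.4 (15.7 to 31.6) and IAA26 with 13.6 (11.3 to 17). IAA13 followed with 8.62 (7.31 to 8.95), IAA11 with 4.76 (4.15 to 7.35), IAA28 with 3.67 (3.29 to 4.10) and IAA10 with 3.55 RPKM (2.08 to 4.71). Among neighbours in this order, the ranges of IAA26 and IAA13 and of IAA11 and IAA28 were apart, and those of the other neighbouring pairs overlapped.

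In hypocotyl the order was IAA12 with 27.4 RPKM (22.9 to 35.9), IAA13 with 19.7 (18.2 to 22.6), IAA26 with 13.7 (12.2 to 16.4) and IAA18 with 9.41 (8.38 to 11). IAA28 had 8.11 RPKM (4.48 to 9.59), IAA11 4.13 (3.49 to 5.49) and IAA10 2.79 (2.18 to 3.30). Here IAA18 overlapped with IAA28 and IAA28 with IAA11, and the other neighbours were apart. With coding length in place of exonic length, IAA28 moved above IAA11 in cotyledon, and in hypocotyl IAA13 moved above IAA12 and IAA28 above IAA18.

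**Figure D1:**
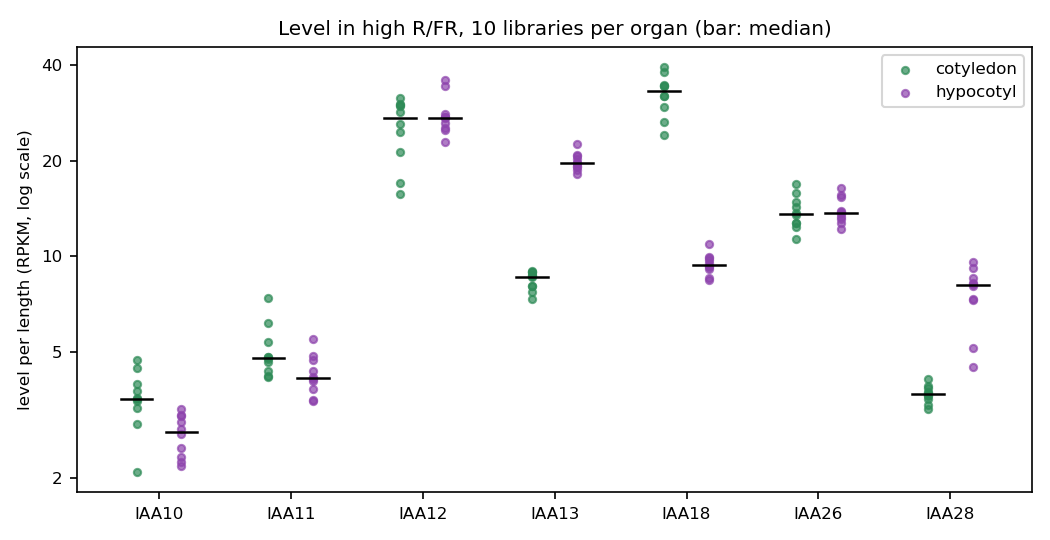
Level per length (RPKM, log scale) of the 7 genes in the 10 high R/FR libraries of each organ; each point is a library and each bar a median. IAA18 is high in cotyledon (median 33.2) and lower in hypocotyl (9.41), and IAA13 and IAA28 are higher in hypocotyl.

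Set against cotyledon within high R/FR, the hypocotyl had more IAA13 and IAA28 transcript and less IAA18. These and all later changes are log2 ratios with their SE from edgeR's quasi-likelihood test, and a call means a p under 0.05 after Benjamini-Hochberg adjustment over all genes tested. In this comparison 5 of 7 genes were called, where 80.3% of 19514 genes were called. IAA13 was higher in hypocotyl by 1.23 ± 0.04 (adjusted p = 2.11e-15), IAA28 by 1.0 ± 0.08 (adjusted p = 1.01e-09), and IAA18 was lower, with -1.79 ± 0.06 (adjusted p = 9.78e-16). IAA10 (-0.40 ± 0.09) and IAA11 (-0.27 ± 0.07) were lower too. IAA12 (0.14 ± 0.08) and IAA26 (0.00 ± 0.05) were not called. This test takes 1 organ difference over all times. For IAA12, hypocotyl stood below cotyledon at 0 min (means 39.1 and 46.7 CPM) and above it at 180 min (36.2 and 24.7 CPM). In a fit with 1 mean per group over all 36 libraries, IAA12 was called as higher (0.16, adjusted p = 0.000703).

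These values depend on how the organs are scaled. With library sizes taken as total gene counts the median of all genes moved by 0.64, and IAA10, IAA11 and IAA26 became higher in hypocotyl, by 0.24, 0.37 and 0.64. IAA12 became called as higher (0.77, adjusted p = 1.21e-07). IAA13 (1.86), IAA28 (1.64) and IAA18 (-1.16) kept their directions and calls with other sizes. In low R/FR 6 of 7 genes were called (background 64.7%), as a mean over 4 times at which the responses differed. IAA13 (1.17 ± 0.10), IAA28 (0.80 ± 0.15) and IAA12 (0.25 ± 0.08) were higher in hypocotyl. IAA18 (-1.18 ± 0.17), IAA10 (-0.63 ± 0.12) and IAA26 (-0.94 ± 0.34) were lower. IAA11 was not called (0.35 ± 0.27), but was called as higher with 1 mean per group over all 36 libraries (0.35, adjusted p = 3.93e-05). With the organs of a replicate number paired, the calls of IAA12 (0.21, adjusted p = 0.111) and IAA26 (-0.73, adjusted p = 0.158) were lost. With total gene counts, where the median of all genes moved by 0.59, the calls of IAA10 (-0.04, adjusted p = 0.776) and IAA26 (-0.35, adjusted p = 0.351) were lost. IAA11 became called as higher (0.94, adjusted p = 0.00396), IAA18 was at -0.59, IAA12 at 0.84, IAA13 at 1.76 and IAA28 at 1.39. Under TMM scaling, the call of IAA26 was lost without hypocotyl low R/FR replicate 1 (-0.82, adjusted p = 0.0674) or 3 (-0.79, adjusted p = 0.0648) at 180 min or replicate 1 (-0.85, adjusted p = 0.0669) or 2 (-0.84, adjusted p = 0.0675) at 90 min. That of IAA12 was lost in 4 such fits, with adjusted p of 0.0569 and 0.0640 without hypocotyl low R/FR replicates 1 and 2 at 90 min, 0.0626 without replicate 2 at 45 min and 0.0646 without replicate 3 at 180 min.

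How these repressor genes respond to simulated shade was asked by setting low against high R/FR at matched times. At 15 min, 0 of 7 were called in either organ (background 0.219% in cotyledon and 0.179% in hypocotyl). By DESeq2 and limma-voom the count was also 0. At an unadjusted p under 0.05, 1 gene passed in cotyledon, IAA10 (0.43 ± 0.18), and 0 in hypocotyl. At 45 min IAA11 rose in both organs. At 90 min the organs differed: in cotyledon IAA26 rose most, and in hypocotyl IAA11 rose 7.31-fold while IAA28 fell to 0.317 of its level in high R/FR.

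**Figure D2:**
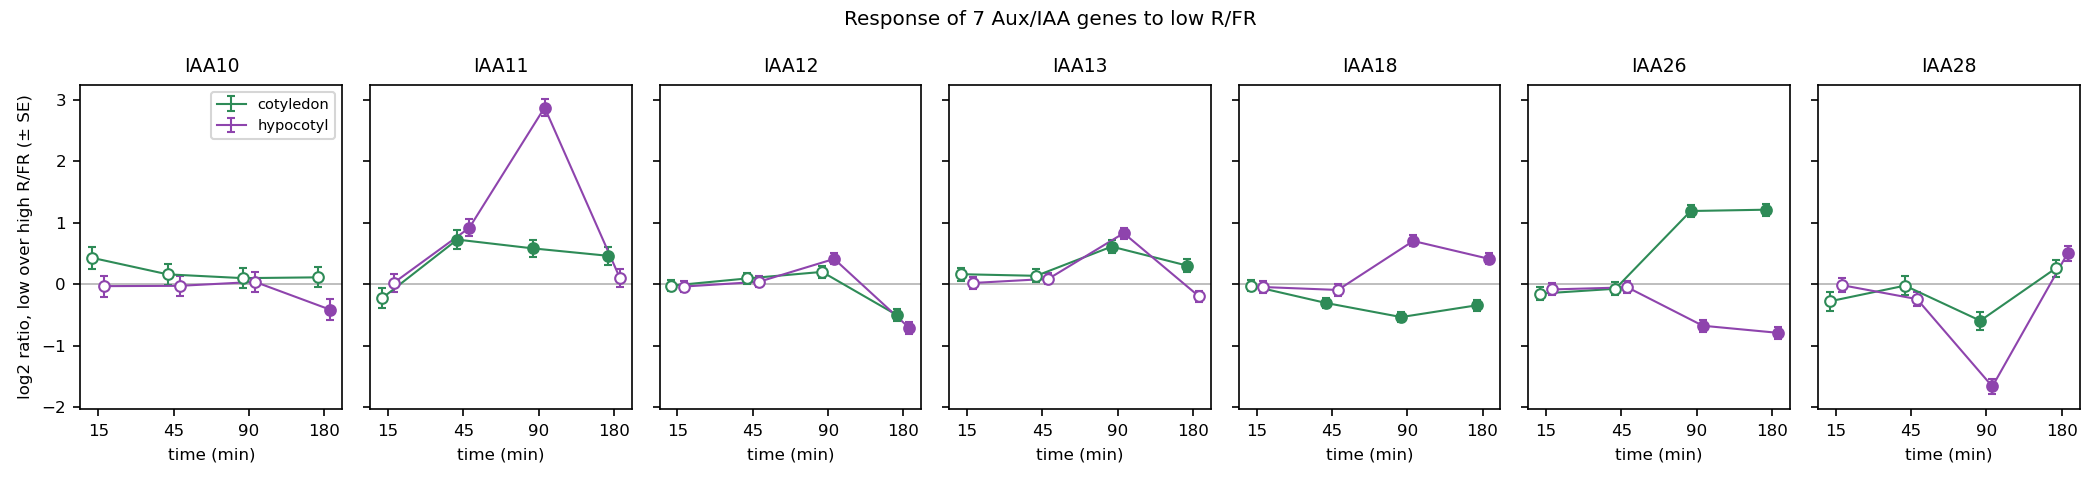
Log2 ratio of low over high R/FR (± SE) against time in cotyledon (green) and hypocotyl (purple) for each gene, from 2 libraries per group; times are spaced evenly, and filled points were called at an adjusted p under 0.05. The highest point is IAA11 in hypocotyl at 90 min (2.87), and IAA18 and IAA26 run in opposite directions in the organs.

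In cotyledon 2 of 7 genes were called at 45 min (background 3.61%), 5 at 90 min (10.8%), 3 higher and 2 lower (4.41% and 6.35%), and 5 at 180 min (19.5%). The medians over the 7 genes were 0.09, 0.20 and 0.26, beside 0.00, -0.02 and -0.02 over all genes tested. Leaving out any 1 of the 4 libraries gave 0 or 1 called gene at 45 min and 3 at 180 min. In hypocotyl 1 was called at 45 min (3.31%), 6 at 90 min (37.6%) and 5 at 180 min (63.8%). These were 4 higher and 2 lower at 90 min (19.1% and 18.5% of all genes) and 2 higher and 3 lower at 180 min (31.2% and 32.6%). Medians there were -0.03, 0.41 and -0.20, beside 0.00, -0.02 and -0.04 over all genes tested.

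**Figure D3:**
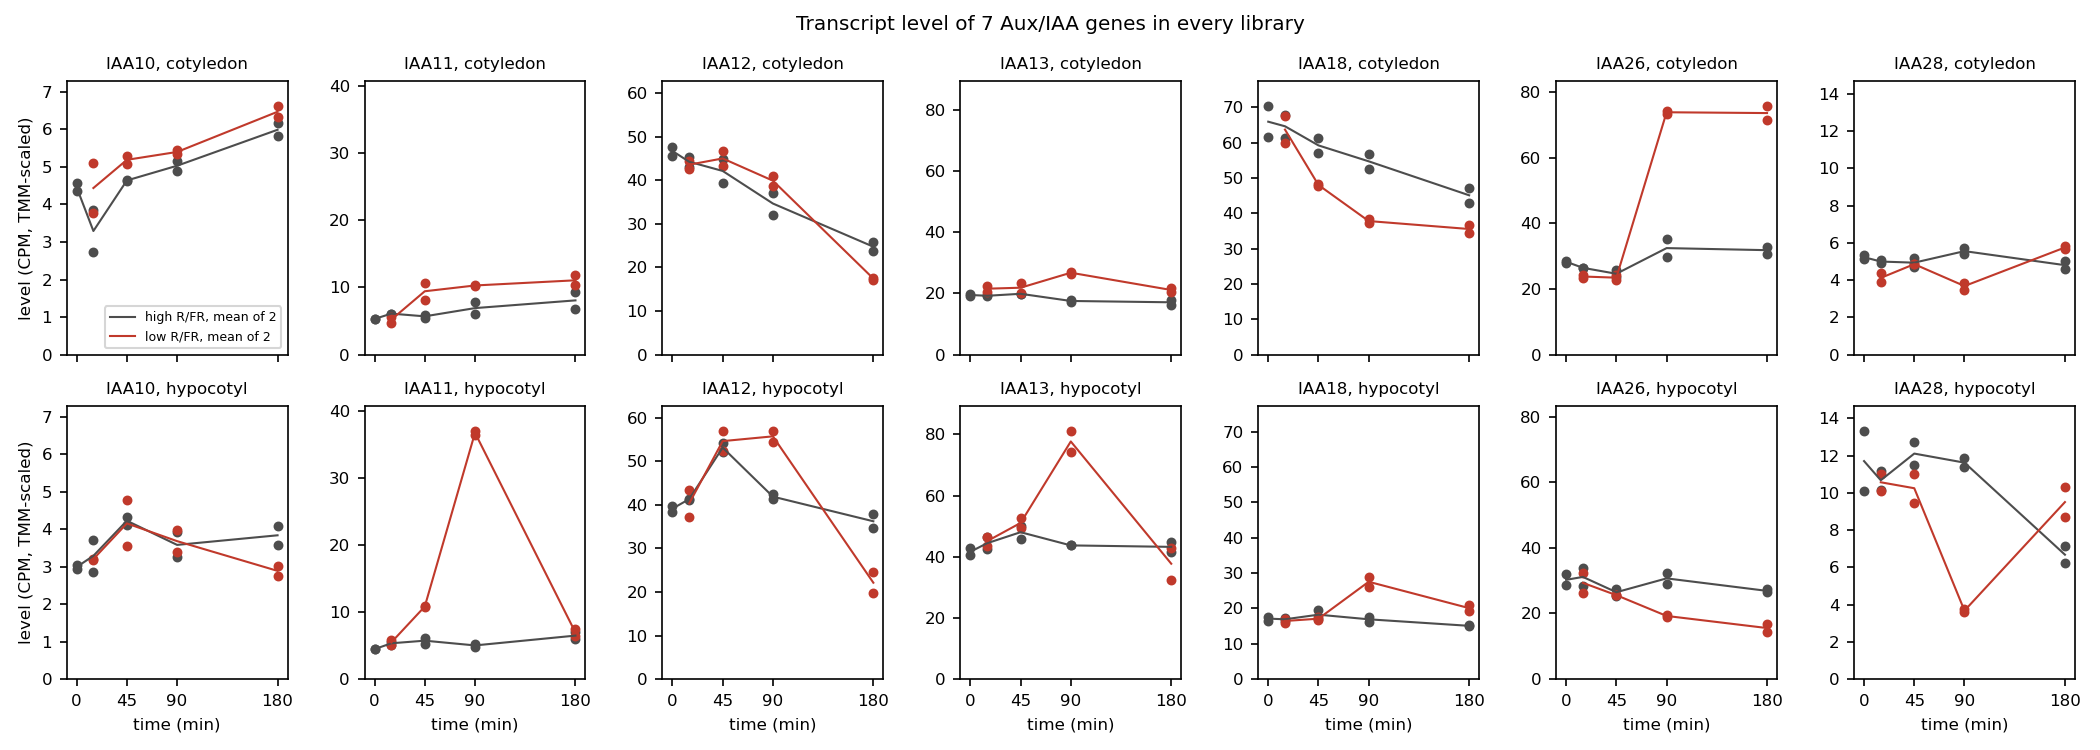
Transcript level (CPM) of each gene in all 36 libraries against time, cotyledon above and hypocotyl below; points are libraries, lines join means of 2, high R/FR in grey and low R/FR in red, and each gene has the same axis in both organs. IAA11 and IAA13 peak and IAA28 dips at 90 min of low R/FR in hypocotyl, and IAA26 rises between 45 and 90 min in cotyledon.

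IAA12 (AT1G04550; TAIR10 chromosome 1, 1240375 to 1242121), the repressor of MONOPTEROS, was higher in low than in high R/FR hypocotyls at 90 min and lower at 180 min. At 45 min it had 54.2 and 52 CPM under high R/FR and 52.3 and 57 CPM under low R/FR. At 90 min it stood at 41.4 and 42.4 CPM under high R/FR and at 54.4 and 57 CPM under low R/FR. At 180 min it stood at 34.6 and 37.8 CPM under high R/FR and at 19.8 and 24.5 CPM under low R/FR. The light groups did not overlap at either time, with low R/FR above at 90 min (0.41 ± 0.09, adjusted p = 0.000367) and below at 180 min (-0.71 ± 0.09, adjusted p = 8.43e-08). In low R/FR the mean level was similar at 45 and 90 min (54.6 and 55.7 CPM), whereas in high R/FR it was lower at 90 min (53.1 and 41.9 CPM). The response differed between 180 and 90 min by -1.12 ± 0.13 (adjusted p = 3.53e-08). Its difference between 90 and 45 min, 0.37 ± 0.12 (adjusted p = 0.0306), was lost when any of the 8 libraries was left out (adjusted p 0.0513 to 0.219).

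In cotyledon IAA12 stood at 32.1 and 37.2 CPM under high R/FR and 38.7 and 41.1 CPM under low R/FR at 90 min, and was not called (0.20 ± 0.09, adjusted p = 0.211). At 180 min it stood at 25.8 and 23.7 CPM under high R/FR and 17.6 and 17.2 CPM under low R/FR, a fall by 0.50 ± 0.10 (adjusted p = 0.000347). The response at 180 min was below that at 90 min by -0.71 ± 0.14 (adjusted p = 0.0011). No difference of its response between organs was called at any time, with 0.21 ± 0.13 at 90 min and -0.21 ± 0.14 at 180 min. The latter became called, at -0.41 (adjusted p = 0.0283) and -0.50 (adjusted p = 0.00482), without hypocotyl high R/FR replicate 2 or low R/FR replicate 3 at 180 min.

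IAA13 (AT2G33310; chromosome 2, 14113025 to 14116087), the relative of IAA12, rose in both organs at 90 min. In hypocotyl it stood at 43.7 and 43.7 CPM under high R/FR and at 74.2 and 81.2 CPM under low R/FR. In cotyledon it stood at 17.9 and 17.1 CPM under high R/FR and at 27.1 and 26.4 CPM under low R/FR. The groups were well apart in both organs, with a rise by 0.83 ± 0.09 in hypocotyl (adjusted p = 1.03e-08) and 0.61 ± 0.10 in cotyledon (adjusted p = 4.61e-05), and the difference between organs was not called (0.22 ± 0.14, adjusted p = 0.297).

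At 180 min IAA13 stood at 41.6 and 44.9 CPM under high R/FR and at 32.5 and 43.0 CPM under low R/FR in hypocotyl, so that the groups overlapped and no call was made (-0.20 ± 0.09, adjusted p = 0.0652). This value became a called fall without hypocotyl high R/FR replicate 2 (-0.35, adjusted p = 0.00848) or low R/FR replicate 3 (-0.51, adjusted p = 5.06e-05), and also by DESeq2 (-0.23, adjusted p = 0.0381) and limma-voom (-0.21, adjusted p = 0.0459). The response in hypocotyl dropped by 1.03 ± 0.13 from 90 to 180 min (adjusted p = 2.28e-07). In cotyledon at 180 min the levels were 16.2 and 17.9 CPM under high R/FR and 21.7 and 20.5 CPM under low R/FR. The call there (0.30 ± 0.10, adjusted p = 0.0395) was lost without any of the 4 libraries (0.24 to 0.38, adjusted p 0.0586 to 0.264). At that time the hypocotyl response lay below the cotyledon response by -0.50 ± 0.14 (adjusted p = 0.00389).

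IAA11 (AT4G28640; chromosome 4, 14142130 to 14143969) had the largest response of the 7 genes. In hypocotyl at 45 min it stood at 5.29 and 6.15 CPM under high R/FR and at 10.9 and 10.8 CPM under low R/FR. At 90 min it stood at 4.84 and 5.20 CPM under high R/FR and at 36.4 and 37.0 CPM under low R/FR. By 180 min it was at 5.99 and 6.97 CPM under high R/FR and at 6.45 and 7.42 CPM under low R/FR. Low R/FR thus stood above high R/FR at 45 and 90 min, and the groups overlapped at 180 min.

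The rise of IAA11 in hypocotyl was 0.92 ± 0.14 at 45 min (adjusted p = 3.01e-05) and 2.87 ± 0.13 at 90 min (adjusted p = 1.4e-16), while 180 min was not called (0.10 ± 0.14). The response grew by 1.95 ± 0.19 from 45 to 90 min (adjusted p = 4.79e-09) and dropped by 2.77 ± 0.19 from 90 to 180 min (adjusted p = 5.26e-12). The opposite-strand gene AT4G28650 shares 12 bases with IAA11 in the RefSeq models and 0 in the deposited TAIR10 positions. It had 29 and 33 counts in low R/FR hypocotyls at 90 min, beside 1296 and 1330 for IAA11. At 180 min it had 218 and 172 counts beside 229 and 249 for IAA11.

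In cotyledon IAA11 stood at 5.88 and 5.51 CPM under high R/FR and 8.18 and 10.7 CPM under low R/FR at 45 min, and at 7.84 and 6.00 against 10.2 and 10.4 CPM at 90 min. At 180 min it stood at 9.34 and 6.81 against 11.8 and 10.3 CPM. Low R/FR was above high R/FR at all 3 times, by 0.73 ± 0.15 (adjusted p = 0.00283), 0.58 ± 0.14 (adjusted p = 0.00439) and 0.46 ± 0.14 (adjusted p = 0.0196). Each call was lost without 1 or more libraries. At 45 min this was high R/FR replicate 2 (adjusted p = 0.0588) or low R/FR replicate 2 (adjusted p = 0.176), and at 90 min high R/FR replicate 2 (0.39, adjusted p = 0.203). At 180 min it was high R/FR replicate 2 (0.25, adjusted p = 0.387) or low R/FR replicate 1 (0.36, adjusted p = 0.197). At 90 min the response in hypocotyl exceeded that in cotyledon by 2.29 ± 0.19 (adjusted p = 1.61e-10).

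IAA10 (AT1G04100; chromosome 1, 1059506 to 1061191) had the lowest median per length of the 7 genes in high R/FR in both organs, with 59 to 198 counts per library. In hypocotyl at 180 min it stood at 4.08 and 3.58 CPM under high R/FR and at 2.76 and 3.01 CPM under low R/FR, so the groups did not overlap. This was its only called light response (-0.41 ± 0.17, adjusted p = 0.035), and it was lost without high R/FR replicate 2 (-0.41, adjusted p = 0.0981) or low R/FR replicate 1 (-0.45, adjusted p = 0.0692). At 90 min it stood at 3.24 and 3.91 against 3.96 and 3.39 CPM in hypocotyl, and at 4.90 and 5.17 against 5.45 and 5.35 CPM in cotyledon. Its other light values lay between -0.03 ± 0.17 in hypocotyl and 0.43 ± 0.18 in cotyledon, both at 15 min, and no difference between the organs' responses was called. The difference at 180 min, -0.53 ± 0.23 (adjusted p = 0.0667), became called without hypocotyl high R/FR replicate 3 (-0.75, adjusted p = 0.0215) or low R/FR replicate 3 (-0.72, adjusted p = 0.0316). IAA10 shares 619 bases with the opposite-strand RefSeq gene AT1G04105, which is not a row of the count table.

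IAA18 (AT1G51950; chromosome 1, 19305315 to 19307510) moved in opposite directions in the organs. In cotyledon at 90 min it stood at 56.9 and 52.5 CPM under high R/FR and at 37.3 and 38.3 CPM under low R/FR. In hypocotyl it stood at 17.6 and 16.2 CPM under high R/FR and at 29 and 26.1 CPM under low R/FR. Shaded cotyledons were thus below, and shaded hypocotyls above, their high R/FR samples, with no overlap. The fall in cotyledon was -0.53 ± 0.09 (adjusted p = 3.04e-05), the rise in hypocotyl 0.70 ± 0.09 (adjusted p = 1.43e-07), and the responses differed by 1.24 ± 0.12 (adjusted p = 3.96e-09).

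At 180 min IAA18 stood at 47.2 and 43.0 against 36.8 and 34.3 CPM in cotyledon and at 14.9 and 15.2 against 20.9 and 19.3 CPM in hypocotyl. The same directions held, with -0.34 ± 0.09 in cotyledon (adjusted p = 0.00473), 0.41 ± 0.09 in hypocotyl (adjusted p = 0.00024) and a difference of 0.76 ± 0.13 (adjusted p = 1.11e-05). The cotyledon call at 180 min was lost without high R/FR replicate 1 (-0.28, adjusted p = 0.0881) or low R/FR replicate 2 (-0.29, adjusted p = 0.0732). The hypocotyl call was lost without low R/FR replicate 1 (0.25, adjusted p = 0.0631). The cotyledon value at 45 min (-0.30 ± 0.09, adjusted p = 0.0402), from 61.4 and 57.1 against 48.2 and 47.8 CPM, was lost without any of its 4 libraries (-0.35 to -0.25, adjusted p 0.0559 to 0.37).

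IAA26 (AT3G16500; chromosome 3, 5612500 to 5614410), the gene for PHYTOCHROME-ASSOCIATED PROTEIN1, responded in the direction opposite to IAA18 in each organ at 90 and 180 min. In cotyledon it stood at 25.7 and 23.5 CPM under high R/FR and 22.7 and 24.1 CPM under low R/FR at 45 min, where the groups overlapped. At 90 min it stood at 35.2 and 29.6 CPM under high R/FR and at 73.4 and 74.3 CPM under low R/FR, and at 180 min at 32.9 and 30.7 against 75.7 and 71.5 CPM. All 4 shaded cotyledon libraries at these later times stood above every high R/FR library of the gene.

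IAA26 rose in cotyledon by 1.19 ± 0.10 at 90 min (adjusted p = 1.26e-10) and 1.21 ± 0.10 at 180 min (adjusted p = 1.21e-10). The response grew by 1.26 ± 0.14 from 45 to 90 min (adjusted p = 1.4e-06), and that from 90 to 180 min was not called (0.02 ± 0.14). In hypocotyl it stood at 32.5 and 28.9 against 19.6 and 18.9 CPM at 90 min and at 27.3 and 26.5 against 16.8 and 14.3 CPM at 180 min. Both were falls, by -0.67 ± 0.10 (adjusted p = 2.27e-06) and -0.79 ± 0.10 (adjusted p = 9.06e-08). The organs' responses differed by -1.86 ± 0.14 at 90 min (adjusted p = 1.24e-11) and by -2.0 ± 0.14 at 180 min (adjusted p = 2.15e-12).

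**Figure D4:**
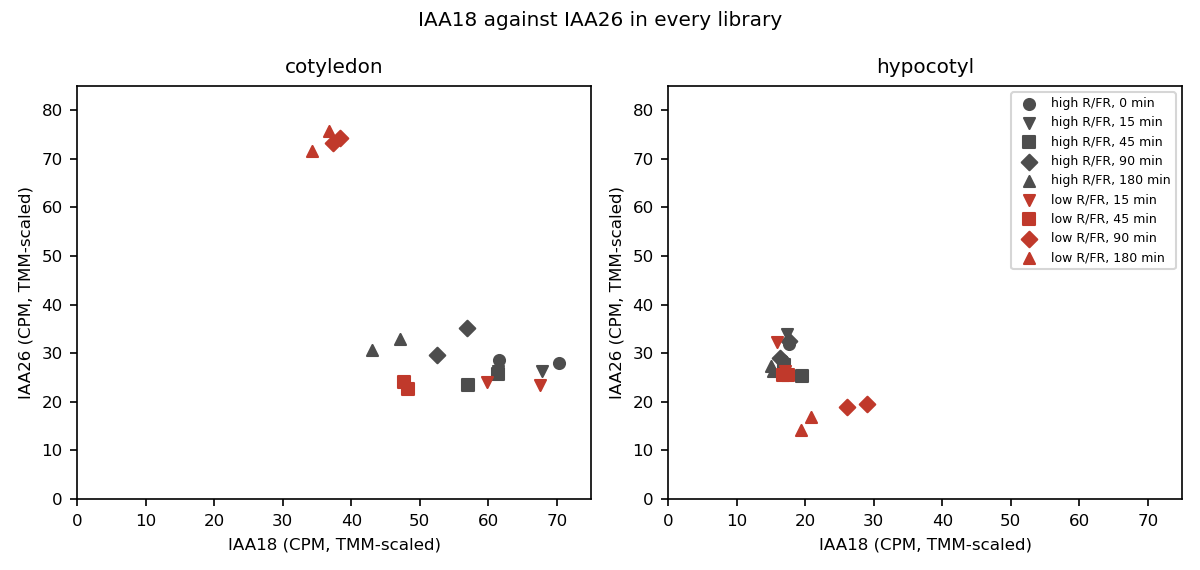
IAA26 against IAA18 (both CPM) in every library, cotyledon left and hypocotyl right; symbols mark the time and red marks low R/FR. The 4 shaded cotyledon libraries at 90 and 180 min lie at 71.5 to 75.7 CPM of IAA26 and 34.3 to 38.3 CPM of IAA18, and the shaded hypocotyl libraries at these times move to less IAA26 and more IAA18.

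Over the 18 group means of log2 CPM, centred within each organ, IAA18 and IAA26 had a Pearson r of -0.79. IAA11 and IAA13 had an r of 0.79, and IAA28 had -0.76 with IAA11 and -0.73 with IAA13. The points share controls and libraries, so these values are descriptions.

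IAA28 (AT5G25890; chromosome 5, 9033415 to 9034834) fell and recovered in shaded hypocotyls. At 45 min it stood at 11.5 and 12.7 CPM under high R/FR and at 9.47 and 11 CPM under low R/FR. At 90 min it stood at 11.4 and 11.9 CPM under high R/FR and at 3.76 and 3.59 CPM under low R/FR, and at 180 min at 7.13 and 6.23 against 8.70 and 10.3 CPM. Shaded hypocotyls were far below high R/FR at 90 min and above it at 180 min.

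The value at 45 min was not called (-0.24 ± 0.12, adjusted p = 0.408). The fall at 90 min was -1.66 ± 0.13 (adjusted p = 5.97e-12), and the response differed from that at 45 min by -1.42 ± 0.17 (adjusted p = 2.04e-07). At 180 min IAA28 was higher in low R/FR by 0.50 ± 0.12 (adjusted p = 0.000629), a shift by 2.16 ± 0.18 from 90 min (adjusted p = 8.72e-11). Part of this contrast lay in high R/FR, where the level at 180 min was below that at 90 min. The call at 180 min was lost without high R/FR replicate 3 (0.31, adjusted p = 0.0698) or low R/FR replicate 3 (0.28, adjusted p = 0.0965).

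In cotyledon IAA28 stood at 5.70 and 5.40 against 3.87 and 3.49 CPM at 90 min, a fall by -0.59 ± 0.15 (adjusted p = 0.00503) that was lost without low R/FR replicate 2 (-0.52, adjusted p = 0.0969). At 180 min it stood at 4.58 and 5.02 against 5.66 and 5.84 CPM, which was not called (0.26 ± 0.14). The shift of the response from 90 to 180 min was 0.85 ± 0.20 (adjusted p = 0.0101). It was lost without high R/FR replicate 1 at 180 min (0.79, adjusted p = 0.0528) or low R/FR replicate 2 at 90 min (0.78, adjusted p = 0.0696). At 90 min the hypocotyl response lay below the cotyledon response by -1.07 ± 0.20 (adjusted p = 0.000103).

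Of the differences between the organs' responses, 0 of 7 were called at 15 min (background 0.0149%) and 0 of 7 at 45 min (0.696%). The counts were also 0 by DESeq2, by limma-voom and at an unadjusted p under 0.05. At 90 min 4 of 7 were called (21.4%), and at 180 min 3 of 7 (46.5%). For the growth of the response from 45 to 90 min, 1 of 7 was called in cotyledon (2.29%) and 6 of 7 in hypocotyl (20.7%). From 90 to 180 min the counts were 2 in cotyledon (5.24%) and 4 in hypocotyl (43.7%).

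Summed levels of marker genes of other cell types differed between the lights in some of these comparisons, in part through single genes. Of the 7 root markers 2 were tested, PRP3 and BGLU23, and BGLU23, a beta-glucosidase gene, was the called one throughout. In cotyledon at 90 min the root sum stood at 697 to 767 CPM under low R/FR and 1075 to 1115 under high R/FR (BGLU23 -0.58 ± 0.10, PRP3 0.44 ± 0.75), and at 180 min at 348 to 428 and 1202 to 1204 CPM (BGLU23 -1.63 ± 0.10, PRP3 0.39 ± 0.83). In hypocotyl it stood at 4325 to 4436 and 5066 to 5516 CPM at 90 min (BGLU23 -0.27 ± 0.10) and at 769 to 1017 and 4020 to 4221 CPM at 180 min (BGLU23 -2.21 ± 0.11, PRP3 1.09 ± 0.65).

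Guard cell markers in cotyledon summed to 329 to 339 CPM under low R/FR and 88.6 to 97.3 under high R/FR at 45 min, to 316 to 340 and 122 to 145 at 90 min, and to 193 to 199 and 130 to 135 at 180 min. At each of these times 1 of 7 was called, the channel gene KAT1 (2.90 ± 0.13, 2.12 ± 0.12 and 1.1 ± 0.12). In hypocotyl they summed to 8.37 to 8.68 and 19.9 to 24.4 CPM at 90 min and to 10.3 to 10.5 and 19.3 to 23.9 CPM at 180 min, with KAT1 higher and MYB60 lower (-1.90 ± 0.15 and -1.66 ± 0.15). Vascular markers in hypocotyl summed to 335 to 361 and 264 to 292 CPM at 90 min, with 1 of 7 higher and 1 lower, and to 231 and 312 to 330 CPM at 180 min, with 4 of 7 lower. Also at 180 min in hypocotyl, shoot apex markers summed to 152 to 160 and 252 to 254 CPM, with 1 of 3 tested lower, and photosynthesis markers to 18174 to 18939 and 29471 to 32671 CPM, with 5 of 5 lower. Their part in the values of the 7 genes was not tested.

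High R/FR samples show the drift of the 7 genes over the same hours without shade. From 0 to 180 min, 4 of 7 genes were called in cotyledon (background 55.6%) and 2 in hypocotyl (44.9%). IAA12 fell in cotyledon from 47.7 and 45.7 CPM to 25.8 and 23.7 CPM (-0.92 ± 0.09, adjusted p = 1.61e-09). It stood at 39.8 and 38.4 CPM at 0 min and 34.6 and 37.8 CPM at 180 min in hypocotyl (-0.11 ± 0.09), and the organs differed by 0.81 ± 0.13 (adjusted p = 1.6e-05). IAA18 fell in cotyledon from 70.3 and 61.6 CPM to 47.2 and 43.0 CPM (-0.55 ± 0.09, adjusted p = 2.58e-06).

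IAA28 fell in hypocotyl from 10.1 and 13.3 CPM to 7.13 and 6.23 CPM (-0.81 ± 0.12, adjusted p = 2.49e-06). IAA11 rose in cotyledon from 5.27 and 5.33 CPM to 9.34 and 6.81 CPM (0.60 ± 0.16, adjusted p = 0.0017) and in hypocotyl from 4.48 and 4.43 CPM to 5.99 and 6.97 CPM (0.54 ± 0.15, adjusted p = 0.00405). The calls of IAA11 were lost without cotyledon replicate 1 (0.36, adjusted p = 0.0924) or hypocotyl replicate 3 (0.43, adjusted p = 0.0557) at 180 min. The call of IAA10 in cotyledon (0.43 ± 0.17, adjusted p = 0.0345) was lost without any of its 4 libraries (adjusted p 0.0669 to 0.139). Differences between the organs in this drift were called for 3 of 7 genes (34.1%), namely IAA12, IAA18 (0.37 ± 0.13) and IAA28 (-0.69 ± 0.19). That of IAA18 was lost without cotyledon replicate 1 at 0 min (0.27, adjusted p = 0.151) or replicate 2 at 180 min (0.30, adjusted p = 0.114), and that of IAA28 without hypocotyl replicate 2 at 0 min (-0.38, adjusted p = 0.141) or replicate 3 at 180 min (-0.51, adjusted p = 0.0651).

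The 7 genes were then set within the summed level per length of all 29 Aux/IAA genes. In cotyledon they made up 10.7 to 11.7% of that sum in high R/FR and 6.64 to 6.80% in low R/FR at 90 min. In hypocotyl they made up 6.31 to 6.46% and 3.02 to 3.04%, while the 8 early auxin-induced members (IAA1 to IAA6, IAA19 and IAA29) made up 18.4 to 19.3% and 61.3 to 62.0%. At 180 min in hypocotyl the share of the 7 was 4.84 to 4.87% in high R/FR and 1.77 to 1.79% in low R/FR. The summed level of the 7 genes in hypocotyl at 90 min was 86.4 to 87.0 RPKM in high R/FR and 130 to 132 RPKM in low R/FR. At that time it was larger in low R/FR although its share of the family was smaller. At 180 min in hypocotyl the sum was smaller in low R/FR, at 60.9 and 68.9 RPKM against 76.1 and 79.3 RPKM in high R/FR.

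Within that sum of 7 genes at 90 min in hypocotyl, IAA11 took 4.38 to 4.74% in high R/FR and 22 to 22.1% in low R/FR, IAA26 16.1 to 17.9% and 6.88 to 7.27%, and IAA28 9.40 to 9.88% and 1.95 to 2.09%. In cotyledon at 90 min IAA26 took 16.1 to 18.4% and 32.2 to 32.4%, and IAA18 33.3 to 34.6% and 19.2 to 19.3%. With exonic lengths, IAA26 was the largest of the 7 in cotyledon and IAA12 the largest in hypocotyl at 90 min of low R/FR. In hypocotyl IAA12 took 27.8 to 28.5% and IAA13 25.8 to 27.6%. With coding lengths IAA13 stood above IAA12 there, at up to 109 against 79.1 RPKM.

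Other genes of the pathway were counted in the same comparisons. At 90 min in hypocotyl all 8 early auxin-induced Aux/IAA genes were higher in low R/FR, with a median of 4.27, and 5 of the 7 tested among 8 other canonical members were higher, with a median of 0.65. Of 5 tested among 6 non-canonical members, 3 were higher. For the 7 genes described here the counts were 4 higher and 2 lower, with a median of 0.41. Of all genes tested, 19.1% were higher and 18.5% lower. In cotyledon at 90 min the counts higher and lower were 8 and 0 of the early members (median 1.75), 4 and 0 of the other canonical members (0.29), and 3 and 2 of the 7 genes (0.20), where 4.41% of all genes were higher and 6.35% lower.

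Among the partners of Aux/IAA proteins at 90 min in hypocotyl, where 37.6% of all genes were called, 2 of 5 activating ARFs were higher and 2 lower, among them ARF19 (1.51 ± 0.16) and ARF6 (-1.07 ± 0.12). Of 6 auxin receptor genes, 1 was higher, AFB1 (2.11 ± 0.10), and 4 were lower, among them TIR1 (-0.63 ± 0.08). Of 5 TOPLESS corepressor genes, 1 was lower, TPR3 (-0.38 ± 0.10). In cotyledon at 90 min (background 10.8%) 0 of these 16 genes were called by edgeR, and 1, ARF8, had an unadjusted p under 0.05. The targets of MONOPTEROS, which IAA12 represses, had 4 of 6 genes tested and 3 of these higher in each organ (19.1% of all genes in hypocotyl and 4.41% in cotyledon). Among them, the transcription factor gene TMO5 rose by 0.90 ± 0.10 in hypocotyl and 0.92 ± 0.12 in cotyledon at 90 min. The rise of the targets did not last. At 180 min in hypocotyl 1 of the 4 was higher and 3 were lower, where 31.2% of all genes were higher and 32.6% lower. In cotyledon at 180 min 0 were higher and 1 was lower, where 19.5% of all genes were called.

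The genes whose pattern was most like each of the 7, among 16239 genes over the 18 group means centred within each organ, were as follows. IAA11 ran with NPY5 (Pearson r 0.93) and AT1G67900 (0.92), and IAA13 with NHX4 (0.92) and AT2G18090 (0.85). IAA12 ran with RVE8 (0.95) and AT4G23770 (0.95), and IAA10 with ATFP8 (0.91) and AT5G15080 (0.88). IAA18 ran with RKL1 (0.93) and BLH6 (0.92), IAA26 with AT3G49210 (0.94) and AT2G12462 (0.91), and IAA28 with AT1G77680 (0.88) and GID1B (0.86).

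The authors' deposited table of light comparisons gave the same call as the fit used here in 53 of 56 pairs of gene and comparison, and log2 ratios differed by at most 0.0144. In the authors' deposited table IAA11 (adjusted p = 0.0608) and IAA13 (adjusted p = 0.0745) in cotyledon at 180 min and IAA10 in hypocotyl at 180 min (adjusted p = 0.0842) were not called.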

How the data were processed

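RNA of 36 dissected samples was sequenced from stranded libraries, per the labels' protocols. Per the submitters' processing notes the authors worked with the TAIR10 annotation and with HTSeq 0.5.4p3, TopHat2 2.0.9 with Bowtie, and cutadapt 1.2.1, besides limma 3.18.2 and edgeR 3.4.0; the strand setting of counting is not given in the sources used here. The deposited table holds raw counts per gene, and its 5 summary lines entered neither library sizes nor tests; reads without a feature made up 0.811 to 2.89% per library. The authors' deposited tables of log2 fold changes and p-values were used for gene positions and for the closing comparison only.

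The counts were scaled by TMM (factors 0.767 to 0.854 in cotyledon, 1.19 to 1.29 in hypocotyl) and filtered with edgeR's filter (minimum count 10, minimum total 15). Tests used edgeR 4.0.16 in R 4.3.3, with group as the factor in a robust quasi-likelihood fit to the 36 libraries (18 residual degrees of freedom); organs were compared within 1 light condition with time as a term (14 and 11 degrees of freedom). Benjamini-Hochberg adjustment ran over all genes tested in a comparison. CPM used TMM library sizes, and RPKM also exonic lengths of RefSeq. Like patterns used log2 CPM with a prior count of 2 and genes with an average of at least 1. The fit was also run on simulated counts drawn with the same spread for every gene, a simpler setting than these data. Alternatives were DESeq2 1.42.0, limma-voom 3.58.1, other scalings, no filter, other sets of libraries, a replicate block and leaving out each library. For the organ differences, a fit with 1 mean per group over all 36 libraries was a further alternative.

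Positions of 20822 of 20823 nuclear genes overlapped between the deposited TAIR10 positions and RefSeq TAIR10.1. IAA13 shares 1176 bases with the opposite-strand gene AT2G33300, which had 0 counts in the 36 libraries. As the strand setting of counting is not given, reads of both genes may not be told apart in these bases. The level per length of IAA13 carries this limit. Duplicates differed beyond sampling noise (chi-square over its degrees of freedom 3.64 to 20.1), so none was a copy. All 7 genes are described throughout; other genes were the called list members with the smallest p, at most 2 per list and organ, and the 2 genes most like each member. 1 gene that this rule also names is not reported here. The 7 genes and the lists were chosen with earlier results of these data known.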

Additional observations from a re-analysis of the deposited data

Results flagged for a closer look

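The organs' responses to low R/FR differed by a test of the difference, as hypocotyl minus cotyledon on the log2 scale in the edgeR fit. At 90 min the differences were 2.29 for IAA11, 1.24 for IAA18, -1.86 for IAA26 and -1.07 for IAA28. At 180 min they were -0.50 for IAA13, 0.76 for IAA18 and -2.0 for IAA26. For IAA18 and IAA26 the called responses had opposite signs in the organs at both times.

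The response also differed between successive times. From 45 to 90 min in cotyledon it moved by 1.26 for IAA26. In hypocotyl it moved by 1.95 for IAA11, 0.37 for IAA12, 0.74 for IAA13, 0.80 for IAA18, -0.62 for IAA26 and -1.42 for IAA28. From 90 to 180 min in cotyledon it moved by -0.71 for IAA12 and 0.85 for IAA28. In hypocotyl it moved by -2.77 for IAA11, -1.12 for IAA12, -1.03 for IAA13 and 2.16 for IAA28. From 45 to 90 min in hypocotyl, the call of IAA12 was lost without the filter on low counts and without any of its libraries (0.27 to 0.39). From 90 to 180 min in cotyledon, that of IAA28 was lost without some single libraries (0.79 and 0.78).

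The change from 0 to 180 min in high R/FR differed between the organs by 0.81 for IAA12, 0.37 for IAA18 and -0.69 for IAA28. The calls of IAA18 (0.27 and 0.30) and IAA28 (-0.38 and -0.51) were lost without some single libraries.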

How the results depend on the processing

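Of the single-gene results, 145 of 147 kept their direction and side of the threshold by DESeq2 and as many by limma-voom, 143 with RLE scaling, 138 without a filter, 93 of 98 with the organ's own 18 libraries, and 973 of 1036 when a library was left out. With 1 mean per group over all 36 libraries, 12 of 14 organ differences were the same, and those of IAA12 in high R/FR and IAA11 in low R/FR became called. With total gene counts in place of TMM, 7 of 14 organ differences were the same. In low R/FR those of IAA10 (-0.04) and IAA26 (-0.35) were no longer called and that of IAA11 (0.94) was, as was that of IAA12 (0.77) in high R/FR. The organ differences in high R/FR of IAA10 (0.24), IAA11 (0.37) and IAA26 (0.64) changed sign as the median of all genes moved by 0.64. Without a filter 6 genes differed between the organs' responses at 180 min and 2 responses differed between 90 and 45 min in cotyledon. With the organ's own libraries the latter count was also 2, and 1 gene was called in cotyledon at 45 min; the causes were not tested.

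Leaving out each library in turn gave 0 to 1 called genes in cotyledon at 45 min and 3 to 3 at 180 min, 3 to 5 in hypocotyl at 180 min, and 3 to 6 differences between organs at 180 min. It gave 1 to 2 shifts from 90 to 180 min in cotyledon, and 2 to 3 and 1 to 2 changes with time in high R/FR in cotyledon and hypocotyl. Replicate numbers were not used to pair the samples in the main fit. The correlation of deviations between groups with the same numbers exceeded 0.1 in 3 of 5 light pairs (-0.02 to 0.20). It did so in 5 of 7 organ pairs (0.08 to 0.40), so whether a number links the organs was not settled. With the number as a replicate block 143 of 147 results were the same: IAA10 in hypocotyl at 180 min (adjusted p = 0.0554) and the low R/FR organ differences of IAA12 (0.111) and IAA26 (0.158) were not called, and IAA18 from 90 to 180 min in hypocotyl was (0.0098).

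IAA10 had 59 to 198 reads per library. Its median level was the lowest of the 7 genes in high R/FR in both organs. In cotyledon under low R/FR, IAA28 stood lower with exonic lengths (median 3.31 against 4.07 RPKM). With coding lengths IAA28 stood above IAA10 there (8.72 against 6.77 RPKM).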
